A study of Mus musculus with 4 samples.

Results

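The genes described here are 38 markers of Kupffer cells, other macrophages, monocytes and leukocytes in general, taken by gene symbol from a list and read in whole mouse liver. That list was chosen with earlier results of these data known. The shares of markers set beside those of all genes below are therefore descriptions, not independent tests. Of these, 37 had a probe set naming that gene alone, among 19938 genes measured in this way, and Slc11a1 was not analysed here. The values come from 4 Affymetrix Mouse Gene 1.0 ST arrays, on which a probe set summarises short probes along a transcript. The KO-labelled arrays held liver RNA of SIRT6Co/Co ;Alb-Cre mice at 2 and at 8 months of age, which carry a conditional Sirt6 allele and Cre recombinase driven by the albumin promoter. The WT-labelled arrays held liver RNA of WT SIRT6 mice at the same ages. RNA was pooled over 3 pairs of mice, so each group was 1 pool and the spread between animals could not be measured. How many mice each array held is not stated here. Albumin is made by hepatocytes, and Kupffer cells are not the cells in which that promoter is known to act. Which Cre or floxed alleles the WT mice carried was not given in the sources used here.

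Kupffer cells are the resident macrophages that line the liver sinusoids. They take up bacteria, dying cells and aged red cells from portal blood, and are known to be seeded before birth and to renew themselves locally. When they are lost, circulating monocytes can enter the liver and take on the same programme, so markers of the resident cell, of monocytes and of all leukocytes are read side by side. In RNA from whole liver, a change in the number of such cells and a change in RNA per cell cannot be told apart.

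All levels are RMA values on the log2 scale as the authors deposited them, so a difference of 1 unit is a 2-fold change. The Sirt6 probe set, the check of the targeted gene, read 4.54 and 4.46 in the KO-labelled arrays at 2 and 8 months, against 4.55 and 4.50 in the WT-labelled arrays. It did not set the genotypes apart, and whether its probes lie in the deleted part was not given, so directions below rest on the labels. The test was an additive limma model of genotype and age over 4 arrays and 11963 genes, with an adjusted p under 0.05 as the threshold. The words rose and fell are used for genes past it. It weighs each gene against 1 residual degree of freedom, shared across genes, and not against spread between pools. Of the genes tested, 6.81% rose and 4.26% fell in the KO-labelled arrays. The share of calls that rose was 61.5%, and 50.9% when the arrays were quantile normalized again. The WT-labelled array at 2 months stood somewhat apart, with 30 genes at least 1.5-fold above all other arrays, against 6 to 10 on each of the others. Among the 37 measured markers, 21 were highest on the KO-labelled array at 2 months and 10 on the WT-labelled array at 2 months. The WT-labelled array at 8 months held the lowest reading of 22. Shares over all genes were not counted, and the part of these arrays in the differences below was not tested. Of 6 early response genes (Fos, Jun, Egr1, Atf3, Btg2 and Ier2), which cells induce within minutes of handling or stress, all 6 rose in the KO-labelled arrays, by 1.83 to 3.70. The part of early response RNA in the marker differences below was not tested.

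The sequences upstream of the genes that passed the test are shown, with that of the Kupffer-restricted lectin Clec4f, which did not pass. Each run is the 250 bases before the annotated start, from RefSeq on build GRCm38.p6, written 5′ to 3′ on the gene's strand. The intervals are chr3:87357631-87357880 on the plus strand, chrX:96293439-96293688 on the minus strand, chr11:46810549-46810798 on the plus strand, chr19:12460520-12460769 on the plus strand, chr10:117282273-117282522 on the minus strand and chr6:83656117-83656366 on the minus strand. Capitals mark the core GAGGAA of sites for PU.1, the factor that Spi1 encodes, and the half-site TGCTGA of Maf factors, each on either strand.
Cd5l: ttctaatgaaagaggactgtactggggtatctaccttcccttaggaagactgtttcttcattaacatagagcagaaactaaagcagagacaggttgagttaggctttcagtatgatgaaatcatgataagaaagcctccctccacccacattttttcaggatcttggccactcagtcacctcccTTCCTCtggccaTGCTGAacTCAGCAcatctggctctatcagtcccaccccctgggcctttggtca
Vsig4: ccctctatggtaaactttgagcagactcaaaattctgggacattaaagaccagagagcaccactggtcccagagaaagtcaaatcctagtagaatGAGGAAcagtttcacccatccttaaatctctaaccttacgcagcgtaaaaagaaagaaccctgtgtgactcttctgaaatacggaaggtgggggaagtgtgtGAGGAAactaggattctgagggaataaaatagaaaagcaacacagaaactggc
Timd4: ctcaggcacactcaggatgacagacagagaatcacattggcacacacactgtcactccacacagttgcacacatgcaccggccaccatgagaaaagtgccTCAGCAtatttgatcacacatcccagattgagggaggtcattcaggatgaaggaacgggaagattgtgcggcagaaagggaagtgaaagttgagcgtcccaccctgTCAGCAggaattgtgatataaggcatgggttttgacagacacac
Mpeg1: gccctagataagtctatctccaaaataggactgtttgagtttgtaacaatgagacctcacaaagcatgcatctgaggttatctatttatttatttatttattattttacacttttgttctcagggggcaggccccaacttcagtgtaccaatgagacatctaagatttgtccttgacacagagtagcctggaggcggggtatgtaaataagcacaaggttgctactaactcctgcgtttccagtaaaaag
Lyz2: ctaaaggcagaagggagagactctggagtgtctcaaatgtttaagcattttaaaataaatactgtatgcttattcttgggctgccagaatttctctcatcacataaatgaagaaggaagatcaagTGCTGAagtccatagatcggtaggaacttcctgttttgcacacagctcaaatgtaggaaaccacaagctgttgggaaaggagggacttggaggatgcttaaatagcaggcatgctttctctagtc
Clec4f: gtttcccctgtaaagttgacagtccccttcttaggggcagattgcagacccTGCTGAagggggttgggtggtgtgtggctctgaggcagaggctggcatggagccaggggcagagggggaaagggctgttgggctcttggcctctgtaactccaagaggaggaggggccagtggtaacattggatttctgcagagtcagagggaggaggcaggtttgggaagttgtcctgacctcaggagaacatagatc

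Among these windows Cd5l held 1 PU.1 core and 2 Maf half-sites, Vsig4 held 2 PU.1 cores and Timd4 held 2 Maf half-sites. Lyz2 and Clec4f held 1 Maf half-site each, and the letters of neither motif were found upstream of Mpeg1. Of 29 members whose window was searched, 14 (48.3%) held the PU.1 core, against 25.9% of 27025 genes. The Maf half-site was in 8 of the 29 (27.6%), against 18.0% of genes. A match is only a run of letters and was not measured as a bound site, and the genes that rose shared no motif in all 4 windows.

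Among all 38 markers, 31 passed the filter on low levels and were tested, and 6 measured ones did not (Marco, Fcgr1, Ms4a7, Ccr2, Itgam and Aif1). In the KO-labelled arrays 4 of the 31 rose (12.9%), namely Cd5l, Vsig4, Timd4 and Mpeg1, against 6.81% of tested genes. Of the 31, 1 fell, Lyz2, against 4.26% of tested genes. At an unadjusted p under 0.05 there were 14 of 31, against 25.0% of tested genes. Leaving out 1 array, in a model of genotype alone, gave 1 marker that rose without the KO-labelled array at 2 months, 2 without that at 8 months, 4 without the WT-labelled array at 2 months and 2 without that at 8 months. The number that fell was then 0, 0, 0 and 2 in the same order. At least 1.5-fold differences were few. At 2 months Cd5l was higher by that much, against 2.52% of all measured genes, and Lyz2 and Cx3cr1 were lower, against 1.81%. At 8 months Cd5l alone was higher, against 1.55%, and 0 markers were lower, against 1.25%. Over the 37 measured markers the KO minus WT difference had a median of 0.13 at 2 months and 0.17 at 8 months. Over all measured genes these medians were -0.04 and 0.00, and over tested genes 0.01 and 0.00. In 21 of 37 markers (56.8%) the KO-labelled array was the higher one at both ages, against 27.0% of all measured genes and 34.4% of tested genes. In 5 (13.5%) it was the lower one at both ages, against 33.0% of all measured genes and 31.8% of tested genes, and 11 differed in direction or were level at 1 age. Both KO-labelled arrays lay above both WT-labelled arrays for 17 markers (45.9%), against 21.5% of all measured genes and 29.1% of tested genes. Both lay below for 4 markers (10.8%), against 25.6% and 25.7%.

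**Figure D1:**
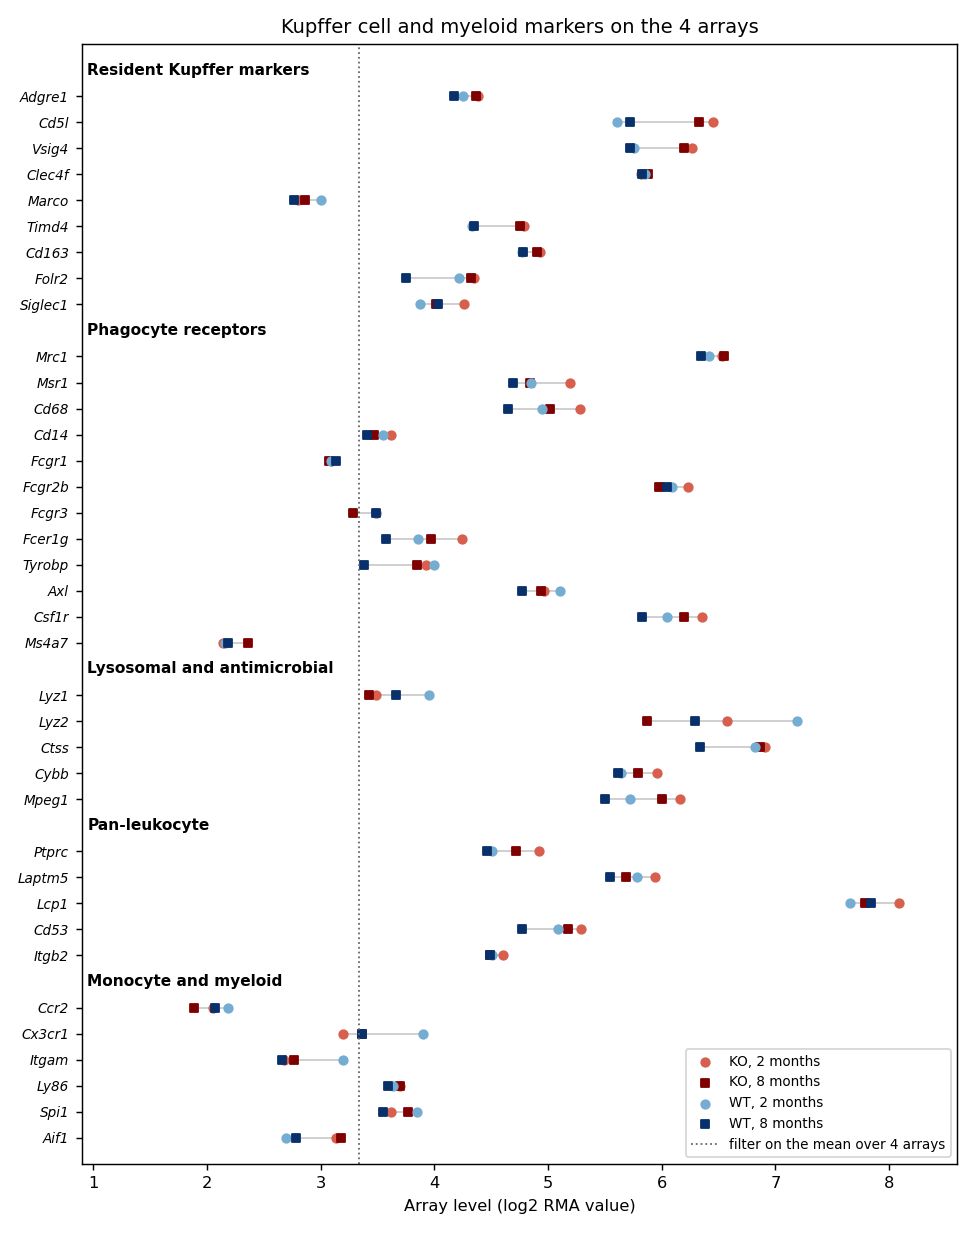
Level of each of the 37 measured markers on the 4 arrays, with the log2 RMA value on the x axis and markers grouped by role on the y axis. Red symbols are KO-labelled and blue symbols WT-labelled arrays, circles 2 and squares 8 months, and the dotted line is the filter at 3.34. Cd5l, Vsig4 and Timd4 show red and blue symbols well apart, and Lyz2 is spread over all 4 arrays.

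Resident Kupffer cell markers held 3 of the 4 genes that rose, or 3 of 8 tested (37.5%), against 6.81% of tested genes. Cd5l, a secreted protein that keeps macrophages from apoptosis, read 6.45 and 6.33 in the KO-labelled arrays at 2 and 8 months, against 5.61 and 5.72 in the WT-labelled arrays. The genotypes did not overlap, and each KO-labelled array was the higher at its age. The difference was 0.84 at 2 months and 0.60 at 8 months, or 1.79-fold and 1.52-fold, with a mean of 0.72 (SE 0.11, limma adjusted p = 0.00081). It was the 1 marker at least 1.5-fold higher at both ages, a distance reached by 1.11% of all measured genes. No marker reached it when the arrays were quantile normalized again. No marker was lower by as much at both ages, against 0.667% of genes. Vsig4, a complement receptor of the immunoglobulin family by which Kupffer cells catch bacteria, read 6.27 and 6.19 in the KO-labelled arrays, against 5.76 and 5.72 in the WT-labelled arrays. The 2 readings of each genotype lay close together and far from those of the other. Its mean difference was 0.49 (SE 0.10, adjusted p = 0.0084), a 1.40-fold change. Timd4, a phosphatidylserine receptor for dying cells that marks long-lived resident Kupffer cells, read 4.79 and 4.75 in the KO-labelled arrays, against 4.33 and 4.35 in the WT-labelled arrays. It too did not overlap, with a mean difference of 0.43 (SE 0.13, adjusted p = 0.0495), at the edge of the threshold. Leaving out any 1 array, with a model of genotype alone, ended the Timd4 call (adjusted p 0.0893 to 0.172), as did testing without the filter (0.11) or with a filter at the 20th percentile (0.0693). The Vsig4 call was lost without the KO-labelled array at 2 months (0.0772), and the Cd5l call held without each array in turn (highest adjusted p 0.0328).

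The other resident markers did not pass. Clec4f, a C-type lectin restricted to Kupffer cells in mice, read 5.82 and 5.88 in the KO-labelled arrays, against 5.86 and 5.82 in the WT-labelled arrays. The genotypes overlapped, the range over 4 arrays was narrow, and the mean difference was 0.01 (SE 0.11, adjusted p = 0.97). Folr2, a folate receptor of tissue macrophages, read 4.35 and 4.33 in the KO-labelled arrays, against 4.21 and 3.76 in the WT-labelled arrays. Its difference of 0.14 at 2 months and 0.57 at 8 months followed a low reading on the WT-labelled array at 8 months, and it did not pass (adjusted p = 0.15). Adgre1, the adhesion receptor that carries a standard macrophage antigen, was higher by 0.14 and 0.20 at 2 and 8 months, and Cd163, the scavenger receptor for haemoglobin bound to haptoglobin, by 0.16 and 0.12. Neither overlapped between genotypes, but neither passed (adjusted p = 0.47 and 0.54). Siglec1, a sialic acid-binding adhesion receptor, was at 0.38 and -0.02, and its genotypes overlapped (adjusted p = 0.48). Marco, a scavenger receptor of a subset of macrophages, lay below the filter at 2.80 and 2.86 in the KO-labelled arrays, against 3.00 and 2.77 in the WT-labelled arrays.

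**Figure D2:**
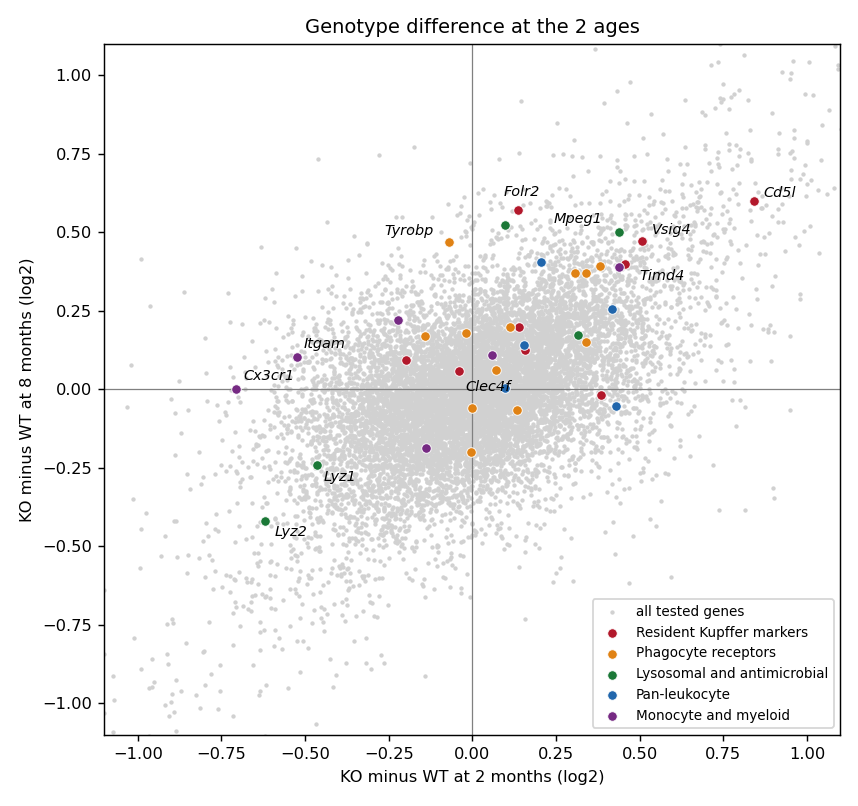
KO minus WT difference at 2 months (x axis) and at 8 months (y axis), both in log2 units, for the 37 measured markers coloured by role and for all tested genes in grey. Genes beyond 1.1 on either axis are not drawn. Cd5l, at 0.84 and 0.60, is farthest into the upper right among the markers, Lyz2, at -0.62 and -0.42, farthest into the lower left, and Clec4f lies near the origin.

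Receptors and adaptors by which phagocytes bind and engulf gave no gene past the test among 10 tested. Over all tested genes 11.1% passed in either direction, so a list of this size may hold none. Csf1r, the receptor for the growth factors that macrophages need to survive, read 6.35 and 6.19 in the KO-labelled arrays, against 6.05 and 5.82 in the WT-labelled arrays. Both KO-labelled readings were above both WT-labelled ones, and the mean difference of 0.34 (SE 0.10) narrowly missed the threshold (adjusted p = 0.052). Cd68, a lysosomal glycoprotein of macrophages, read 5.29 and 5.02 in the KO-labelled arrays, against 4.94 and 4.65 in the WT-labelled arrays, with a mean difference of 0.35 (adjusted p = 0.085). Fcer1g, the signalling chain shared by Fc receptors, read 4.24 and 3.97 in the KO-labelled arrays, against 3.86 and 3.57 in the WT-labelled arrays. For both genes the genotypes were apart and the 8 month reading was the lower one in each genotype. Fcer1g had a mean difference of 0.39 (adjusted p = 0.083) and passed under 3 rescalings of the arrays (lowest adjusted p 0.025). Its partner in signalling, Tyrobp, was at -0.07 at 2 months and 0.47 at 8 months, and its lowest reading was 3.38 on the WT-labelled array at 8 months.

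No other receptor passed the test. The mannose receptor Mrc1, which sinusoidal endothelium also carries, was at 0.11 and 0.20, and the class A scavenger receptor Msr1 at 0.34 and 0.15. The lipopolysaccharide co-receptor Cd14 was at 0.07 and 0.06. The inhibitory Fc receptor Fcgr2b, also made by sinusoidal endothelium, was at 0.13 and -0.06, and the activating Fcgr3, of similar sequence, at 0.00 and -0.20. Axl, a receptor tyrosine kinase for the clearance of dying cells, was at -0.14 and 0.17. The high-affinity receptor Fcgr1 and the membrane protein Ms4a7 lay below the filter, with readings of 3.08 to 3.14 and 2.14 to 2.36. Adjusted p-values of the tested genes in this paragraph were between 0.25 and 0.97.

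The lysosomal and antimicrobial genes held members past the test in opposite directions. Lyz2, the lysozyme of macrophages and neutrophils, read 6.57 and 5.87 in the KO-labelled arrays at 2 and 8 months, against 7.19 and 6.29 in the WT-labelled arrays. It was lower in the KO-labelled array at each age, but the genotypes overlapped, because it also fell with age. The difference was -0.62 at 2 months and -0.42 at 8 months, and it fell by a mean of 0.52 (SE 0.10, adjusted p = 0.0046). A model that leaves age out ended the call (adjusted p = 0.257). With 1 array left out, in a model that ignores age, the call remained without the WT-labelled array at 8 months (-0.97, adjusted p = 0.00508), when the WT-labelled array at 2 months alone is the comparison. It was lost without the WT-labelled array at 2 months (-0.07, 0.908), the KO-labelled array at 2 months (-0.87, 0.233) or that at 8 months (-0.17, 0.77). Lyz2 was also the 1 marker at least 1.5-fold above all other arrays on the WT-labelled array at 2 months, the array that stood apart, and the part of that pool in this call and in the age call below was not tested. Lyz1, the closely related lysozyme of Paneth cells, read 3.48 and 3.42 in the KO-labelled arrays, against 3.95 and 3.66 in the WT-labelled arrays. The genotypes were apart in the same direction, but the mean of -0.35 did not pass (adjusted p = 0.13). The lysozyme genes are neighbours on chromosome 10, and their windows before the start were identical at 78.8% of aligned positions. Probes may not fully separate their transcripts.

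Mpeg1, a pore-forming protein that macrophages use against engulfed bacteria, read 6.16 and 6.00 in the KO-labelled arrays, against 5.72 and 5.50 in the WT-labelled arrays. The genotypes were apart, and it rose by 0.47 (SE 0.11, adjusted p = 0.013), a 1.38-fold change. Its call was lost without the KO-labelled array at 2 months (0.189), the KO-labelled array at 8 months (0.0652) or the WT-labelled array at 8 months (0.135). Ctss, the lysosomal protease cathepsin S, read 6.91 and 6.86 in the KO-labelled arrays, against 6.82 and 6.34 in the WT-labelled arrays. The WT-labelled array at 8 months was the low one, and the mean of 0.31 did not pass (adjusted p = 0.0997). Without the WT-labelled array at 2 months it passed, with 0.55 and an adjusted p of 0.00761 (range over all alternatives 0.00761 to 0.806). Cybb, the catalytic subunit of the phagocyte oxidase, was at 0.32 and 0.17 (adjusted p = 0.19).

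None of the 5 pan-leukocyte genes passed, against 11.1% of tested genes in either direction. For none was the KO-labelled array the lower at both ages, against 31.8% of tested genes. Ptprc, the tyrosine phosphatase carried by nucleated blood cells, read 4.92 and 4.72 in the KO-labelled arrays, against 4.51 and 4.46 in the WT-labelled arrays. The genotypes did not overlap, and the mean difference was 0.34 (SE 0.13, adjusted p = 0.12). The tetraspanin Cd53 was at 0.20 and 0.40 (adjusted p = 0.14), also with the genotypes apart. Lcp1, the actin-bundling protein L-plastin, was at 0.43 at 2 months and -0.05 at 8 months. Its readings of 8.09 and 7.78 in the KO-labelled arrays overlapped with 7.66 and 7.84 in the WT-labelled arrays. The lysosomal protein Laptm5 was at 0.15 and 0.14, and Itgb2, the common chain of leukocyte integrins, at 0.10 and 0.00.

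Monocyte and general myeloid genes were dim, with all readings between 1.88 and 3.90, and 3 of 6 were tested. Cx3cr1, the fractalkine receptor of patrolling monocytes, read 3.20 and 3.36 in the KO-labelled arrays, against 3.90 and 3.36 in the WT-labelled arrays. Only the WT-labelled array at 2 months was high, and the difference was -0.71 at 2 months and 0.00 at 8 months. The mean of -0.35 did not pass (adjusted p = 0.21), but passed without the WT-labelled array at 8 months (0.046, range over all alternatives 0.046 to 0.876). Itgam, an integrin chain of monocytes and neutrophils, had the same shape below the filter, with 2.68 and 2.76 in the KO-labelled arrays, against 3.20 and 2.66 in the WT-labelled arrays. Spi1, the factor that directs myeloid development, was at -0.22 and 0.22, with a mean of 0.00. Ly86, a secreted partner of a toll-like receptor homologue, was at 0.06 and 0.11 (adjusted p = 0.76).

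Ccr2, the chemokine receptor by which classical monocytes leave the marrow, had the lowest reading of the group, 1.88, and read 2.05 and 1.88 in the KO-labelled arrays, against 2.19 and 2.07 in the WT-labelled arrays. Aif1, a calcium-binding protein of macrophages, read 3.14 and 3.18 in the KO-labelled arrays, against 2.70 and 2.79 in the WT-labelled arrays. Aif1 was higher on both KO-labelled arrays, below the filter and without a test. Of 3 further markers of classical monocytes with a probe set of their own, none passed the filter. One of them, the transglutaminase F13a1, read 2.82 and 2.82 in the KO-labelled arrays, against 4.23 and 3.01 in the WT-labelled arrays. The WT-labelled array at 2 months was again the high one, and the part of that pool in the monocyte readings was not tested. At 8 months, which does not use that array, Cx3cr1 was level, Itgam was at 0.10 and F13a1 at -0.18.

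**Figure D3:**
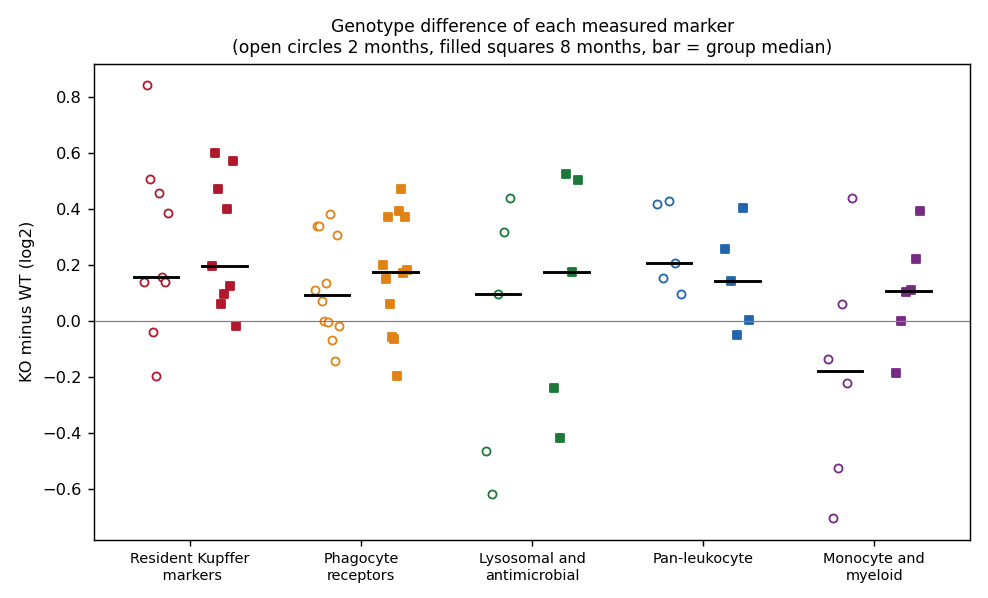
KO minus WT difference in log2 units (y axis) of each measured marker, by role (x axis), with open circles for 2 months, filled squares for 8 months and a bar at each group's median. Resident markers lie between -0.20 and 0.84 at 2 months, and monocyte and myeloid genes between -0.71 and 0.44.

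Set side by side, the resident markers had a median KO minus WT difference of 0.16 at 2 months and 0.20 at 8 months over 9 measured genes. The pan-leukocyte genes had medians of 0.20 and 0.14 over 5 genes, close to those of the resident markers. The monocyte and myeloid genes had medians of -0.18 and 0.11 over 6 genes, 3 of them below the filter. These medians lay on either side of 0, and that at 2 months was -0.091 to -0.10 under 3 rescalings of the arrays. Over all measured genes the medians were -0.04 and 0.00. The phagocyte receptors had medians of 0.09 and 0.17 over 12 genes, and 0.171 at 2 months with each array centred on its median. The lysosomal and antimicrobial genes had 0.10 and 0.17 over 5 genes, though their mean at 2 months was -0.05 and their median there was -0.017 when the arrays were quantile normalized again. Both KO-labelled arrays lay above both WT-labelled ones for 6 of 9 resident markers (66.7%), 2 of 5 pan-leukocyte genes (40%) and 2 of 6 monocyte and myeloid genes (33.3%). The share was 21.5% of all measured genes and 29.1% of tested genes, so that of the monocyte and myeloid genes was near it. These are descriptions of 4 arrays, and whether the groups differ from each other was not tested. Within the resident group the genes ranged at 8 months from -0.02 for Siglec1 to 0.60 for Cd5l.

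With age, Lyz2 was the 1 gene past the test among all 11963 (0.00836%), and 431 genes (3.6%) had an unadjusted p under 0.05. Of the 31 tested markers 5 were among the 431, namely Lyz2, Cd68, Tyrobp, Ctss and Laptm5. It read 5.87 at 8 months against 6.57 at 2 months in the KO-labelled arrays, and 6.29 against 7.19 in the WT-labelled arrays. The 8 month array was the lower in each genotype, at -0.70 in KO and -0.90 in WT, and it fell by a mean of 0.80 (SE 0.10, adjusted p = 0.039). That call was lost under 4 of 8 other settings (adjusted p 0.000195 to 1) and when any 1 array was left out, where the fitted difference without the WT-labelled array at 2 months was -0.49. In 22 of 37 (59.5%) the 8 month array was the lower in both genotypes, against 23.0% of all measured genes and 27.0% of tested genes, and in 2 it was the higher in both, against 23.7% and 19.6%. All 5 lysosomal and antimicrobial genes, 9 of 12 phagocyte receptors and 4 of 5 pan-leukocyte genes were among the 22, with 3 of 9 resident markers and 1 of 6 monocyte and myeloid genes.

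Cd68 was at -0.27 in KO and -0.30 in WT, and Fcer1g at -0.27 and -0.29. Tyrobp was at -0.08 in KO and -0.62 in WT, and Ctss at -0.05 and -0.48. Cx3cr1 was at 0.17 in KO and -0.54 in WT, and Itgam at 0.09 and -0.54. The genes of the complement component C1q, which Kupffer cells make in liver, were lower at 8 months in both genotypes, with C1qa at -0.22 in KO and -0.76 in WT, C1qb at -0.09 and -0.42, and C1qc at -0.47 and -0.46. Resident markers had a median of -0.03 in each genotype, with members on either side of 0. They ran from -0.25 (Siglec1) to 0.07 (Clec4f) in KO and from -0.46 (Folr2) to 0.16 (Siglec1) in WT, and Cd5l was at -0.13 and 0.11. The age differences use the same arrays as the genotype differences, and whether age acted differently in KO and WT could not be tested with 1 array a group.

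**Figure D4:**
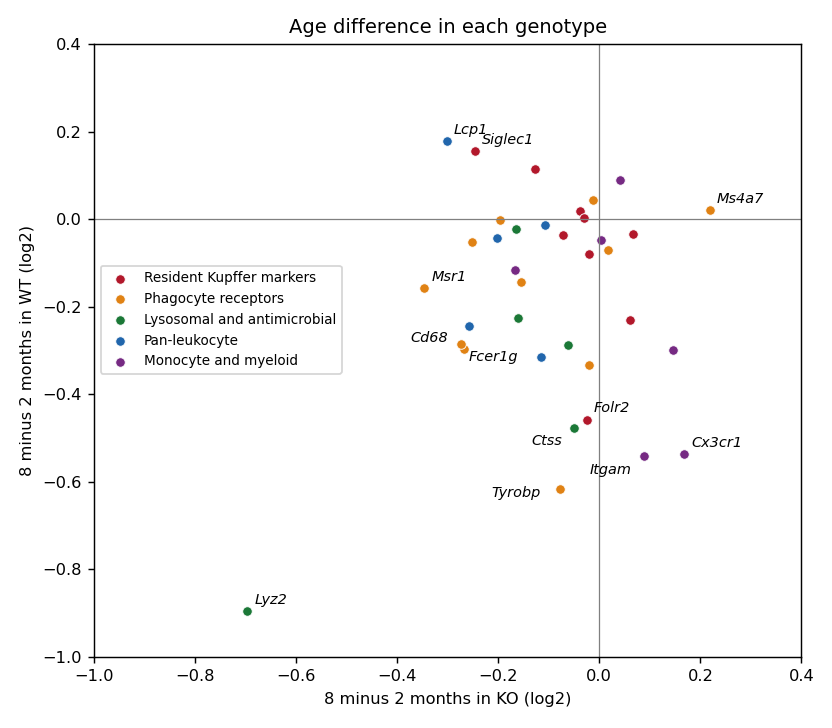
Difference between 8 and 2 months in the KO-labelled arrays (x axis) and in the WT-labelled arrays (y axis), in log2 units, for the 37 measured markers coloured by role. Lyz2, at -0.70 and -0.90, stands alone in the lower left, and 22 markers lie below 0 on both axes.

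Other genes of macrophage biology were read from lists of the same kind, beside 6.81% of all tested genes that rose and 4.26% that fell. Of 11 genes of complement and clearance of dying cells, 3 rose and 0 fell. These were the scavenger receptor and fatty acid transporter Cd36 by 1.41 (SE 0.11, adjusted p = 2.1e-06), the bridging ligand Gas6 by 0.60 and the complement factor properdin, Cfp, by 0.47. Cd36 and Gas6 are not restricted to macrophages in liver. The list's medians were -0.01 and 0.22. C1qa, C1qb and C1qc, with means of 0.16, 0.31 and 0.08, did not pass. Of 3 tested cytokine genes 1 rose, the inflammatory cytokine Il1b, which read 5.14 and 5.08 in the KO-labelled arrays, against 4.18 and 4.03 in the WT-labelled arrays. Its mean difference of 1.00 was a 2.00-fold change (adjusted p = 0.00022). Both KO-labelled readings of Il1b stood about 1 unit above both WT-labelled ones, while 6 of 9 cytokine genes, Tnf and Il6 among them, lay below the filter.

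Of 8 tested chemokines, 2 rose and 0 fell, Cxcl9, which interferon induces, by 0.67 and Cxcl1, which draws neutrophils, by 0.51. Of the 16 measured, 6 were higher in the KO-labelled array at both ages (37.5%, against 27.0% of all measured genes). Another 5 were lower at both ages (31.25%, against 33.0%), among them Ccl9 at -0.16 and -0.35, which did not pass (adjusted p = 0.097). Ccl2, the ligand of Ccr2, lay below the filter at 2.96 to 3.13. Of 9 tested factors of Kupffer cell identity, 0 rose and 1 fell, Id1 by 0.52 (adjusted p = 0.032). Nr1h3, the liver X receptor, was at 0.18 and -0.01, and Spic, a factor of iron-recycling macrophages, lay below the filter. None of 5 tested genes of toll-like receptors and their signalling partners passed, from Ly96 at 0.19 to Tlr9 at -0.31. Of the 14 measured in that list, 9 lay below the filter. No gene passed among 5 tested growth factors and growth factor receptors, from Tgfb1 at 0.29 to Il34 at -0.47. Each of these means came from 1 age, since Tgfb1 was at 0.02 and 0.56 and Il34, high on the WT-labelled array at 2 months, at -1.02 and 0.08. None of 6 genes of haem and iron recycling passed, from Tfrc at 0.29 to Blvra at -0.23.

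Lysosomal genes that many liver cells express did not move one way. Of 14, 1 rose, the hexosaminidase subunit Hexa by 0.44, and 2 fell, the protease Ctsl by 0.90 and the progranulin gene Grn by 0.81. Of 5 tested genes known from lipid-laden macrophages, the tetraspanin Cd9 rose by 0.84 and the fatty acid binding protein Fabp5 fell by 0.64. Trem2, a lipid-sensing receptor that defines such macrophages, was at -0.13 and -0.14.

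Markers of other leukocytes were dim. All 12 neutrophil markers lay below the filter, with readings of 1.96 to 3.35. Their mean level was 2.62 and 2.64 in the KO-labelled arrays, against 2.70 and 2.67 in the WT-labelled arrays. Of 36 other measured leukocyte markers (classical monocyte, T, B, NK and dendritic cells) 9 were tested. None of the 9 passed, against 11.1% of tested genes, and 0 had an unadjusted p under 0.05, against 25.0%. Among the tested ones the means ran from -0.20 for the dendritic factor Batf3 to 0.12 for Zbtb46, and Cd3e and Cd2 of T cells were at -0.19 and 0.00. The B cell genes Cd79b and Pax5 were at 0.10 and -0.02, and Prf1 of NK cells at -0.15. Of the 48 measured genes of these lists, 39 lay below the filter. The median KO minus WT over the 48 was -0.13 in 2 month livers and 0.02 in 8 month livers. Over all measured genes it was -0.04 and 0.00, and over tested genes 0.01 and 0.00. The KO-labelled array was higher at both ages in 12.5% of the 48, against 27.0% of all measured genes. It was lower at both ages in 31.25%, against 33.0%. The part of low signal in these values was not tested. Of 9 sinusoidal endothelial markers 1 rose, the junction protein Cdh5 by 0.45, and the list's median was 0.08 and -0.03, while its mean level differed by 0.16 and 0.06. In 3 of the 9 the KO-labelled array was the higher at both ages, against 34.4% of tested genes. In 3 others, Stab1, Stab2 and Clec4g, it was the lower at both ages, against 31.8%. None of 8 hepatocyte genes passed, from the transport protein Ttr at 0.13 to the urea cycle enzyme Cps1 at -0.24. Of 8 stellate cell genes Reln rose by 0.29, and Acta2 and Col1a1 fell by 1.94 and 0.56. Of 4 erythroid genes Car1 and Alas2 rose by 0.73 and 0.64, and 0 fell. In 3 of the 4 the KO-labelled array was the higher at both ages, against 34.4% of tested genes. Klf1 was the lower at both, at -0.43 and -0.38, and did not pass (adjusted p = 0.072). The part of these cell types in the Kupffer marker differences was not tested.

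**Figure D5:**
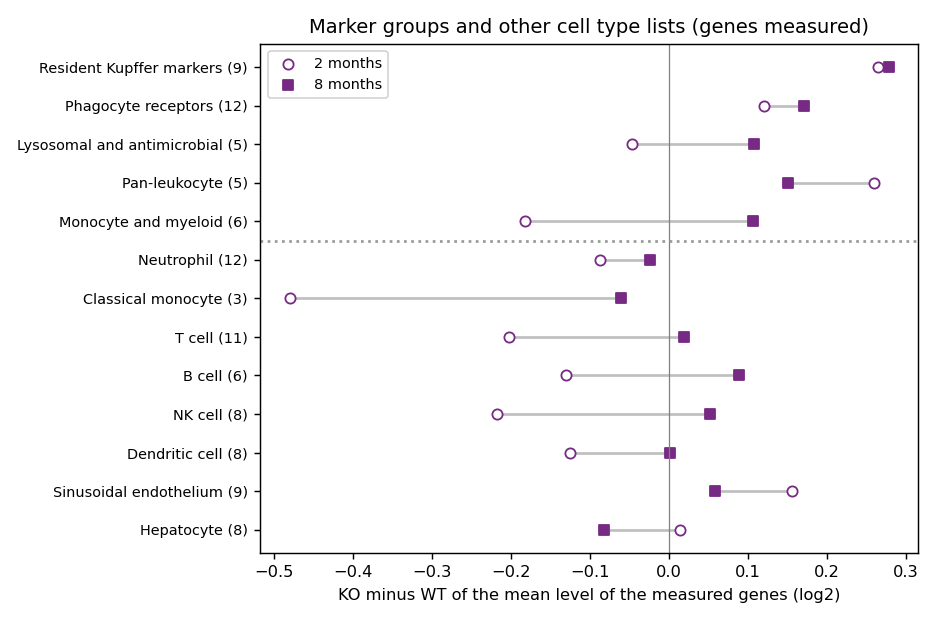
KO minus WT difference of the mean log2 level of each list (x axis), with lists on the y axis, the number of measured genes in brackets, open circles for 2 months and squares for 8 months. The resident markers lie at 0.27 and 0.28 (list medians 0.16 and 0.20) and the pan-leukocyte genes at 0.26 and 0.15. The neutrophil, classical monocyte, T, B, NK and dendritic cell lists lie between -0.48 and 0.09. In these last lists 39 of 48 measured genes are below the filter. The classical monocyte list is farthest left at 2 months, carried by F13a1 among its 3 genes (list median -0.01).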

How the data were processed

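Total liver RNA was measured on 4 arrays, 1 for each genotype and age. The submitters' processing notes name RMA and Affymetrix Expression Console 1.0v, and the values the authors deposited are on the log2 scale that RMA gives, though the table names no log base. RMA corrects background, quantile normalizes and summarises probes, which compresses differences of dim genes. The genome build, and whether all arrays were normalized as 1 set, are not given in the sources used here. Values ran from 0.89 to 13.27, and array medians from 3.52 to 3.58. An array has no read depth, so the number of arrays limits precision.

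Of 35556 probe sets, 21789 had 1 gene symbol, 1621 several and 12146 none. Those with 1 symbol were averaged per gene, each measured member having 1, and 3 probe sets naming Itgam with another gene were left out. A lookup of gene identifiers in RefSeq's GRCm38.p6 table changed 0 symbols. Genes whose mean exceeded the 40th percentile, 3.34, were tested with limma 3.58.1 in R 4.3.3 (additive genotype and age, intensity trend, prior of 11.3 degrees of freedom, Benjamini-Hochberg over 11963 genes). The p-values measure neither the spread between pools nor that between animals. Fits were tested on simulated data, where false calls exceeded the nominal share in most sets.

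The members and lists were chosen with earlier results of these data known. Named genes are all members, and of each other list up to 3 highest and 3 lowest past the test, or its extremes where none passed. C1q genes, F13a1, Nr1h3, Spic, Ccl2, Tnf, Il6 and Trem2 were added after their values were seen. Alternatives changed the filter, trend, normalization, probe set choice and covariate. Leaving out each array was added after seeing the data.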

Additional observations from a re-analysis of the deposited data

Results flagged for a closer look

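Itgam, an integrin chain of monocytes and neutrophils, moved in opposite directions at the ages. The KO minus WT difference read -0.52 in 2 month livers and 0.10 in 8 month livers, from readings of 2.68 and 2.76 in the KO-labelled arrays, against 3.20 and 2.66 in the WT-labelled arrays. All its readings lay below the filter, each group is 1 array, and the difference between the ages was not tested. Markers were listed here when the direction differed between the ages and the differences lay at least 1.5-fold apart.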

How the results depend on the processing

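The count of markers higher in the KO-labelled arrays was 4 and stayed within 1.5 times of that under the other filters, normalizations, probe set choice, trend and covariate. It was 1 to 4 when each array was left out in turn, which uses a model of genotype alone and assumes that the lone array of a genotype varies like the others. The count lower in the KO-labelled arrays was 1, was 0 without the age term, and 0 to 2 with an array left out. The count past the age test was 1, and 0 without the filter, with a filter at the 20th percentile, without the intensity trend, without the genotype term and, as a range, 0 to 0 with an array left out. The median of the lysosomal and antimicrobial genes at 2 months was -0.017 when quantile normalization was applied again, against 0.096. Other group medians moved by less than the pooled SD of 0.1 between the ages, though at 2 months the phagocyte receptors were at 0.171 and the resident markers at 0.238 with median centring, against 0.091 and 0.158, and the lysosomal and antimicrobial genes at 0.176 with median centring and 0.009 with cyclic loess. The pooled SD was taken from the gaps between the ages of these same group medians. The widest gap was that of the monocyte and myeloid genes, at -0.18 and 0.106, so the SD is a loose yardstick for the other groups. The count of markers 1.5-fold apart at both ages was 1, and 0 with quantile normalization again. The cause of these shifts was not tested. Over all genes the genotype test called 1325, against 752 without the filter, 846 without the trend, and 504, 839, 839 and 1015 without the KO-labelled array at 2 months, the KO-labelled array at 8 months, the WT-labelled array at 2 months and the WT-labelled array at 8 months. The genotype test called 1761 with repeated quantile normalization, 1723 with cyclic loess, 1445 without the age term and 1358 with the brightest probe set. It called 1293 with median centring and 1175 with a filter at the 20th percentile. The age test called 1 gene, against 14 with median centring, 3 with cyclic loess or repeated quantile normalization and 2 with the brightest probe set. No paired analysis was possible because each group is 1 array and the labels carry no replicate numbers; the model already sets the genotypes against each other within age. Dim markers, below 3.34, are limited by signal over background.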
